A study of Mus musculus with 4 samples.

Results

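Integrin subunit transcripts were measured in cultures of mouse embryonic stem cells (mESC), for 7 genes chosen by name from the 32285 genes of the matrix. They are the α subunits Itga3, Itga5, Itga6, Itgav and Itga9 and the β subunits Itgb1 and Itgb5. The choice was made with earlier results of these data known, so the shares over all genes below stand beside a chosen list. All 7 had more than the 500 counts required for a comparison across genes, so no member was lost to the filter on low values. The study compared 2 WT samples of E14tg2a.4, a male mESC line, with 2 Srrm2 hKO samples. The hKO cells are a single heterozygous gene-trap line made from E14tg2a.4, in which 1 copy of Srrm2, a gene for a large splicing factor, is truncated, so the genotype rests on 1 clone. Both lines grew in serum-free medium with the cytokine LIF, which holds mESC in self-renewal, where the labels name 24 h or 72 h of growth for the series and the methods 48 h for the single-cell cultures. Single cells were profiled by droplet sequencing of transcript 3′ ends. Cells of the 4 libraries were deposited in a joint matrix and are marked 1 to 4 by library, with nothing that ties these marks to the samples. Levels are therefore given by library, and WT and Srrm2 hKO could not be compared. Each library is 1 culture, so a difference between libraries has no replicate error and was not tested.

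Integrins are receptors at the cell surface that hold cells to the extracellular matrix. Each is a pair of 1 α and 1 β subunit, and the pair decides the ligand. The products of Itga3 and Itga6 pair with the β1 subunit made from Itgb1 to bind laminins, and the product of Itga5 pairs with β1 to bind fibronectin. The αv subunit, from Itgav, pairs with β5, from Itgb5, and with other β chains to bind ligands such as vitronectin, and α9, from Itga9, pairs with β1 to bind tenascin C and osteopontin. Inside the cell, talins, kindlins and integrin-linked kinase join the β tails to actin. Epiblast cells, the counterpart of mESC in the embryo, meet laminin and fibronectin, and β1 integrin is needed for the embryo to develop past implantation.

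On GRCm38, Itga3 (ENSMUSG00000001507) spans chr11:95044474-95076801 and Itga5 (ENSMUSG00000000555) spans chr15:103344286-103366763, both on the minus strand. The other members lie on the plus strand, Itga6 (ENSMUSG00000027111) at chr2:71745616-71858416, Itgav (ENSMUSG00000027087) at chr2:83724397-83806916, Itga9 (ENSMUSG00000039115) at chr9:118606690-118901003, Itgb1 (ENSMUSG00000025809) at chr8:128685654-128733200 and Itgb5 (ENSMUSG00000022817) at chr16:33829665-33949338. The antisense gene Gm2415 covers the 3′ end of Itga9 on the opposite strand.

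Promoter sequence of RefSeq (GRCm38.p6, 250 bases before to 50 after a start site) was held for 6 of the 7 members, and not for Itga6. Matches were sought on both strands for the AP-1 motif (TGANTCA), the TEAD motif (GGAATG), the GC box (GGGCGG) and the CArG box, to which serum response factor binds. The GC box was in the windows of 5 of the 6 genes, against 35.6% of all 32817 promoter windows. The TEAD letters were in that of Itgb1, against 14.7% of windows, and the AP-1 letters in those of Itga9 and of a second start of Itga3, against 7.81%. Both of these windows lie inside the gene, and for Itga9, the member without a GC box, no other window was held. The CArG box was in 0 of the 6, against 1.63% of windows. No matches overlapped, and a match is a run of letters, not a binding site. The bases before the start are shown for Itga3, Itga5 and Itgb1, the 3 members with the highest mean ratio of keratin-high to naive-high cells in the results that follow. They are written 5′ to 3′ on the strand of the gene with matches in capitals, and for Itga3 they end before the start site of the longer GENCODE model. The windows are chr11:95076802-95076964 (minus) for Itga3, chr15:103366792-103367041 (minus) for Itga5 and chr8:128685404-128685653 (plus) for Itgb1.
Itga3: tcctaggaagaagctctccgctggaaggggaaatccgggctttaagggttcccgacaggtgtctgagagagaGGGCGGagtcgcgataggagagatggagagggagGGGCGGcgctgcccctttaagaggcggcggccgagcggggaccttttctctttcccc
Itga5: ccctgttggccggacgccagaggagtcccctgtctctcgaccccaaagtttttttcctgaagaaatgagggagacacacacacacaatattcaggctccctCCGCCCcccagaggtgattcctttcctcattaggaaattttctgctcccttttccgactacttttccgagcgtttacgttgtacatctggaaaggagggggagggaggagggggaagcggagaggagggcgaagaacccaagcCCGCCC
Itgb1: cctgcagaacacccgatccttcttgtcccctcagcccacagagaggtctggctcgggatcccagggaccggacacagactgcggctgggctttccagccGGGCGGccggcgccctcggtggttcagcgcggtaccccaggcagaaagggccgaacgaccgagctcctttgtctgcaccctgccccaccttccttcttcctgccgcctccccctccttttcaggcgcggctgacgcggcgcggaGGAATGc
The capitals in the Itga3 and Itga5 stretches are GC boxes. Those of Itgb1 are a GC box and, next to the start, the TEAD letters.

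A filter on depth and mitochondrial share, rebuilt from the methods, kept 31989 of 41142 barcodes, between 7464 and 8514 per library, with median depths of 18378 to 21898 UMIs (unique molecular identifiers, each counting 1 captured transcript). This is a slightly larger number of cells than the study kept. Levels are UMIs of a gene per 1000000 UMIs of the pooled kept cells (CPM, counts per 1000000) and are given with exact 95% Poisson intervals, which cover counting error only. Between 11 and 26 cell barcodes were shared by any pair of libraries among kept cells, at most 0.348% of the smaller library. Srrm2 stood between 238 and 533 CPM, and its level was not used to name a library. Kept cells were divided by markers into keratin-high cells (Krt8 and Krt18 together at or above 300 CPM of the cell and at least 3 UMIs), formative-high cells (more UMIs of the formative than of the naive panel), naive-high cells (naive panel at least 2 times the formative panel) and the intermediate rest. The naive panel holds 10 genes of the ground state such as Klf4 and Esrrb, and the formative panel 10 genes such as Otx2 and Fgf5 that rise as cells leave it. These classes are ranges, not cell types. Of the kept cells, 1223 (3.82%) lay between 0.5 and 2 times the keratin limit, and 3685 and 2649 lay at naive to formative ratios of 1.5 to 3 and 0.5 to 1.5.

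The classes were unevenly spread over the libraries. Naive-high cells made up 94.6%, 67.3%, 72.2% and 32.4% of libraries 1 to 4. Formative-high cells made up 3.21%, 21.1%, 11.9% and 50.5%. Keratin-high cells made up 0.998%, 0.529%, 9.70% and 5.35%, or 81, 45, 766 and 399 cells. The pluripotency genes Pou5f1, Sox2 and Sall4 were read in every class, with summed levels of 932 to 1393 CPM in the other 3 classes and 512 to 864 CPM in keratin-high cells. The 6 fibroblast markers moved with the keratin-high class, at 41.3, 47.1, 66.0 and 20.4 CPM in libraries 1 to 4 against 0.0939 to 7.21 CPM in the other classes. Col1a1 and Col1a2 carried most of this signal, while Lum had 0 UMIs in keratin-high cells. The 6 trophectoderm markers together were at 42.6 to 77.4 CPM in keratin-high, 44.2 to 62.0 CPM in naive-high and 7.63 to 10.7 CPM in formative-high cells, but their members went opposite ways. Tfap2c made up most of the naive-high sum, at 51.1, 60.5, 42.6 and 54.03 CPM in libraries 1 to 4, and was at 13.5, 16.9, 11.7 and 9.71 CPM in keratin-high cells. The other 5 moved with the keratin-high class, at 29.05, 37.4, 65.7 and 43.55 CPM against 1.52 to 3.02 CPM in naive-high and 2.80 to 4.25 CPM in formative-high cells. Krt7, itself a keratin, and Gata3 carried most of this signal, while Elf5 had 0 UMIs in keratin-high cells. The 6 primitive endoderm markers were at 6.96 to 22.4 CPM in keratin-high cells and at 0.744 to 5.40 CPM elsewhere. Dab2 was the highest of them in keratin-high cells of each library, at 5.73, 7.11, 15.4 and 6.47 CPM, while Gata4, Sox17 and Pdgfra had 0 UMIs in those of library 1. In keratin-high cells of libraries 3 and 4 Sox17 was at 2.895 and 2.55 CPM, against 0.026 and 0 CPM in naive-high cells. Gata6 was at 3.08 and 2.65 CPM there, against 0.120 and 0.131 CPM. Gata4, Sox7 and Pdgfra were at 0.138 to 1.08 CPM in the keratin-high cells of these libraries. The part of these cell types in the levels of the integrins was not tested beyond the values that follow.

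Over whole libraries, Itga3 differed most among the members. Its level was 2.79 CPM (2.54 to 3.05) and 2.75 CPM (2.52 to 2.99) in libraries 1 and 2, then 11.9 CPM (11.4 to 12.4) and 8.11 CPM (7.69 to 8.54) in libraries 3 and 4. Libraries 1 and 2 did not differ beyond counting error (ratio 1.01, 0.895 to 1.15), and libraries 3 and 4 lay above both. The highest and lowest libraries were 4.33-fold apart (3.94 to 4.77), and 4.99% of the 12849 genes with at least 500 counts had a larger fold. Of the members, 4 (Itga3, Itga5, Itga9 and Itgb1) were at least 2-fold apart between the highest and lowest library, beside 23.3% of all genes tested. The median fold was 2.05 over the 7 members and 1.47 over all genes.

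Itga6, which like Itga3 encodes a laminin-binding α subunit, was the steadiest member, at 68.8, 74.7, 72.3 and 79.9 CPM in libraries 1 to 4. Its highest library stood 1.16-fold above the lowest (1.13 to 1.19), a smaller fold than in 88.6% of genes. Median-of-ratios scaling in place of totals shifted libraries by -0.12 to 0.09 on the log2 scale. It took the ratio of library 4 to library 1 to 1.00, so the order of the libraries for Itga6 rests on the scaling.

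Itga5, the fibronectin receptor subunit, stood at 8.33, 5.57, 11.4 and 7.14 CPM across libraries 1 to 4. Library 3 was highest and library 2 lowest, 2.05-fold apart (1.90 to 2.21). Itgav showed the same order at the ends, with 7.19, 5.50, 8.55 and 5.75 CPM and a fold of 1.55 (1.44 to 1.68). Its levels in libraries 2 and 4 did not differ beyond counting error (ratio 1.05, 0.958 to 1.14).

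Itga9 ran the other way. Across libraries 1 to 4 it stood at 6.69, 6.35, 4.23 and 2.42 CPM, so that library 1 stood 2.77-fold above library 4 (2.47 to 3.10). Libraries 1 and 2 did not differ beyond counting error (ratio 1.05, 0.971 to 1.14).

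Both β subunits were lowest in library 1 and highest in library 4. Itgb1, the common partner of most α chains here, had 45.1, 66.5, 83.1 and 109 CPM, a 2.41-fold range (2.35 to 2.48). Itgb5 had 7.01, 9.39, 11.2 and 12.8 CPM, a 1.82-fold range (1.70 to 1.96). All 4 libraries were apart beyond counting error for both genes.

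**Figure D1:**
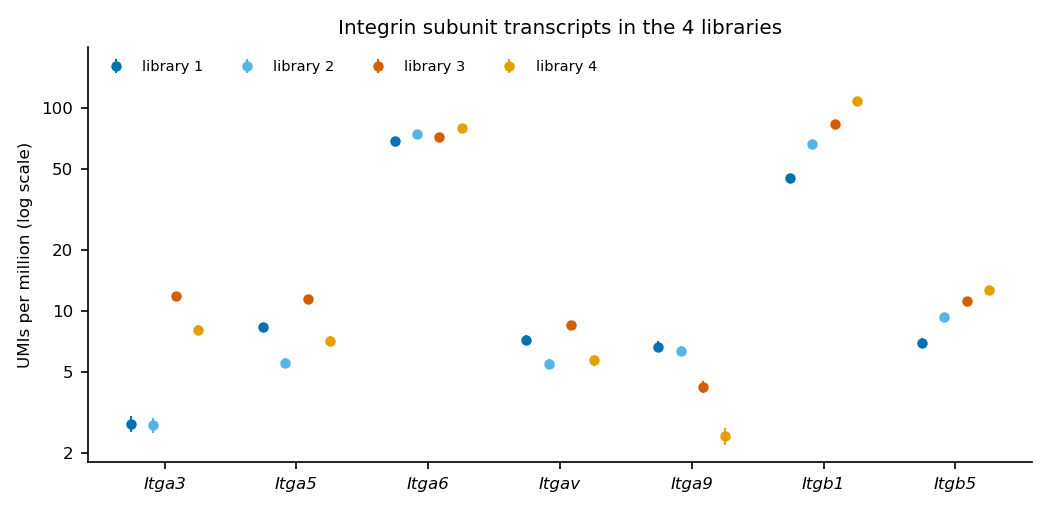
Level of each of the 7 integrin subunit transcripts in libraries 1 to 4, in UMIs per 1000000 UMIs of the kept cells on a log axis, with exact 95% Poisson intervals as bars (mostly smaller than the points). Itga3 is near 2.8 in libraries 1 and 2 and reaches 11.9 in library 3, Itga6 stays between 68.8 and 79.9, and Itga9 is lowest in library 4.

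The same subunits were then measured within each cell class. Keratin-high and naive-high cells were set against each other in libraries 3 and 4, which held at least 100 cells of both classes. In both libraries 5 of the 7 members (Itga3, Itga5, Itgav, Itgb1 and Itgb5) were at least 2-fold higher in keratin-high cells, beside 9.24% of the 10064 genes tested, and 0 of 7 were at least 2-fold lower, beside 5.45%. A gene was tested if the 2 classes together held 200 or more of its UMIs in each library taken alone. In library 4 Itga3 reached this limit only with its keratin-high cells, at 606 UMIs against 133 in naive-high cells. The place of Itga3 in the count of 5 thus leans on the limit. Naive-high cells of library 4 held 225, 265, 3617 and 360 UMIs of Itga5, Itgav, Itgb1 and Itgb5. The median over the members of the mean fold of the 2 libraries was 3.80, against 1.04 over all genes tested. These contrasts hold cells of the same culture, so each is a description of pooled cells and has no replicate error.

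Itga3 stood apart from the other members in keratin-high cells. In naive-high cells it was at 1.24, 1.62, 2.63 and 2.50 CPM in libraries 1 to 4, and in keratin-high cells at 70.4, 64.0, 59.3 and 59.4 CPM. The keratin-high levels of the 4 libraries lay within a 1.19-fold range (1.01 to 1.39), while the whole libraries spanned more than 4-fold. The ratio of keratin-high to naive-high cells was 22.6 (19.9 to 25.7) in library 3 and 23.8 (19.7 to 28.9) in library 4. In the smaller keratin-high classes of libraries 1 and 2 it was 56.9 (46.1 to 70.3) and 39.5 (29.9 to 51.9). In formative-high cells Itga3 was at 12.8, 5.26, 15.6 and 6.58 CPM, between the naive-high and keratin-high levels in every library and higher than in naive-high cells by 10.3, 3.25, 5.93 and 2.64-fold.

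Itga3 was high in keratin-high cells on either side of the naive and formative panels. Keratin-high cells with more naive than formative UMIs had 56.01 CPM (51.5 to 60.8) in library 3, and those with more formative UMIs 61.9 CPM (57.3 to 66.8). In library 4 the first of these was the higher, at 74.8 CPM (63.1 to 87.9) against 55.4 CPM (50.4 to 60.9).

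Since fibroblast markers and deep cells moved with the keratin-high class, Itga3 was also measured without them. Keratin-high cells with no UMI of the 6 fibroblast markers, 68.0% of the class in library 3 and 91.2% in library 4, had 60.0 CPM (56.2 to 64.0) and 56.3 CPM (51.6 to 61.3) of Itga3. Those with such a UMI had 57.4 CPM (51.7 to 63.6) in library 3, where the intervals overlapped, and 92.6 CPM (73.5 to 115) in library 4, where they did not. Cells above 2 times the median UMIs of their library, where doublets would lie, were 22.7% of keratin-high cells in library 3 and 9.02% in library 4, against 3.81% and 2.03% of naive-high cells. Without them the keratin-high cells of libraries 1 to 4 had 60.2, 63.3, 61.4 and 58.6 CPM of Itga3. Other members moved more in library 3. Without deep cells its keratin-high cells had 126, 33.5, 310 and 32.7 CPM of Itga6, Itgav, Itgb1 and Itgb5. The whole class had 112, 24.3, 265 and 25.9 CPM of them. Itga5 and Itga9 changed less, at 36.2 against 33.3 CPM and 3.61 against 3.26 CPM. In library 4 Itga6, Itgav, Itgb1 and Itgb5 were at 99.9, 15.4, 329 and 29.2 CPM, against 100.3, 15.0, 311 and 27.7 CPM. A UMI of Pou5f1, Sox2 or Sall4 was present in 92.8% and 99.5% of the keratin-high cells of libraries 3 and 4, and these had 59.8 and 59.6 CPM of Itga3. They are nearly the whole class, so their level could hardly differ from that of the class and is no separate check.

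**Figure D2:**
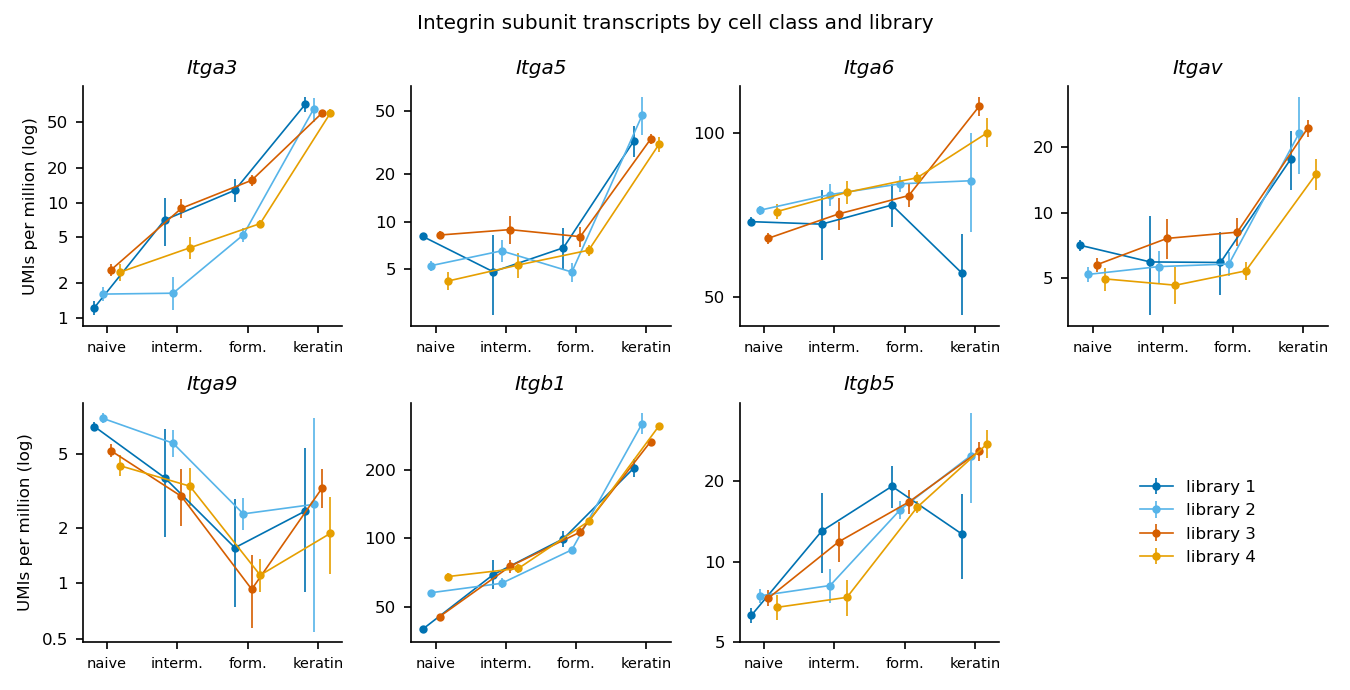
Level of each integrin subunit transcript in naive-high, intermediate (interm.), formative-high (form.) and keratin-high cells of libraries 1 to 4, in UMIs per 1000000 on log axes that differ between panels, with exact 95% Poisson intervals as bars. Itga3 lies at 1.24 to 2.63 in naive-high and 59.3 to 70.4 in keratin-high cells of the 4 libraries, and Itga9 is lower in formative-high than in naive-high cells in each.

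Itgb1 followed the same order of classes with a smaller range. It was at 39.9, 57.7, 45.3 and 67.9 CPM in naive-high cells, at 99.5, 88.9, 107 and 119 CPM in formative-high cells and at 203, 318, 265 and 311 CPM in keratin-high cells of libraries 1 to 4. Keratin-high cells thus had 5.85-fold (5.64 to 6.08) the naive-high level in library 3 and 4.58-fold (4.37 to 4.80) in library 4. Keratin-high cells with a fibroblast UMI had 393 CPM of Itgb1 in library 3 and 515 CPM in library 4, and those with none had 213 and 292 CPM.

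For Itga5 and Itgav the difference lay mainly between keratin-high cells and the rest. Itga5 was at 8.25 CPM in naive-high, 8.06 CPM in formative-high and 33.3 CPM in keratin-high cells of library 3, and the formative-high to naive-high ratio of 0.977 (0.829 to 1.15) included 1. In library 4 the same ratio was 1.57 (1.34 to 1.83), with 4.22, 6.61 and 30.9 CPM in the 3 classes. For Itgav the naive-high, formative-high and keratin-high cells had 5.78, 8.14 and 24.3 CPM in library 3 and 4.98, 5.42 and 15.0 CPM in library 4. Both moved with the fibroblast markers. For Itgav the keratin-high cells with none of their UMIs had 15.3 CPM (13.4 to 17.4) in library 3 and 12.98 CPM (10.8 to 15.5) in library 4, and those with one had 46.0 and 36.6 CPM. For Itga5 the cells without a fibroblast UMI had 28.5 CPM (25.9 to 31.3) and 29.0 CPM (25.6 to 32.6), and those with one 44.7 CPM (39.7 to 50.2) and 51.4 CPM (37.5 to 68.8).

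Itgb5 differed between formative-high and naive-high cells in all 4 libraries. Its naive-high levels were 6.31, 7.46, 7.31 and 6.76 CPM and its formative-high levels 19.1, 15.7, 16.7 and 16.0 CPM, a ratio of 2.10 to 3.03. Keratin-high cells had 25.9 and 27.7 CPM of it in libraries 3 and 4, where those with no fibroblast UMI had 20.1 CPM (17.96 to 22.5) and 25.1 CPM (21.99 to 28.5) and those with one 39.7 CPM (34.96 to 44.9) and 54.9 CPM (40.5 to 72.7). In the 81 keratin-high cells of library 1 Itgb5 was at 12.7 CPM (8.62 to 18.0), and its interval overlapped that of the formative-high level there (15.9 to 22.9). In the 45 of library 2 it was at 24.9 CPM (16.5 to 35.98).

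Itga9 was lower outside the naive-high class. In naive-high cells it was at 7.02, 7.77, 5.18 and 4.32 CPM in libraries 1 to 4, and in formative-high cells at 1.56, 2.37, 0.929 and 1.11 CPM. The ratio of formative-high to naive-high cells was 0.222 (0.106 to 0.409), 0.305 (0.246 to 0.374), 0.179 (0.110 to 0.277) and 0.257 (0.200 to 0.326). In keratin-high cells of libraries 3 and 4 Itga9 stood at 3.26 and 1.86 CPM, or 0.629 (0.485 to 0.806) and 0.432 (0.255 to 0.690) of the naive-high level.

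For Itga6 the ratio of formative-high to naive-high cells was 1.07, 1.12, 1.199 and 1.15 in libraries 1 to 4. In keratin-high cells the libraries differed, with 112 CPM in library 3, 1.75-fold (1.67 to 1.83) the naive-high level, and 100.3 CPM in library 4, 1.40-fold (1.30 to 1.498). Keratin-high cells with no fibroblast UMI were at 89.9 CPM (85.2 to 94.7) in library 3 and 93.6 CPM (87.4 to 99.97) in library 4, with overlapping intervals. Those with one had 166 and 173 CPM, and these intervals overlapped too. In library 1 the keratin-high cells had 55.2 CPM, 0.803 (0.673 to 0.952) of the naive-high level.

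Over the 4 libraries together, 2 of the 7 members (Itga3 and Itgb5) were at least 2-fold higher in formative-high than in naive-high cells of every library, beside 3.67% of the 10836 genes tested, and 1 of 7 (Itga9) was at least 2-fold lower, beside 2.7%. In libraries 1 and 4 Itga3 reached the limit of 200 counts only with its formative-high cells, as its naive-high cells held 192 and 133 UMIs. Itga9 reached it in every library through its naive-high cells, with 10 to 101 UMIs in formative-high cells. Both counts thus lean on the limit. Formative-high cells also held more keratin, at 46.2 to 71.2 CPM against 6.48 to 16.3 CPM in naive-high cells. Among cells with no Krt8 or Krt18 UMI the formative-high to naive-high ratio for Itga3 was 11.97 (7.28 to 18.8), 1.94 (1.40 to 2.65), 6.08 (4.602 to 7.97) and 1.84 (1.37 to 2.46) in libraries 1 to 4. For Itgb5 it was 2.69, 1.78, 1.86 and 1.92, each with an interval above 1. Among these cells neither Itga3 nor Itgb5 was thus at least 2-fold higher in every library.

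Itga3 was graded with the keratin level of the cell in each library. In cells with no keratin UMI it was at 1.25, 1.74, 2.92 and 3.05 CPM in libraries 1 to 4. It was at 3.399, 3.38, 6.60 and 4.97 CPM where keratin was under 100 CPM, at 13.4, 8.86, 19.3 and 9.76 CPM between 100 and 300 CPM, at 47.5, 35.5, 41.4 and 32.7 CPM between 300 and 1000 CPM, and at 87.7, 92.6, 66.4 and 98.8 CPM from 1000 CPM on. Every step was upward in each of the 4 libraries. Over all libraries Itga5 was at 6.56, 6.72 and 7.999 CPM in the lowest 3 keratin ranges and at 21.1 and 40.5 CPM in the highest 2. The lowest 3 differed in library 4, at 4.54, 5.93 and 8.10 CPM with intervals apart. In library 3 they were at 7.84, 8.77 and 10.4 CPM, with the first interval (7.30 to 8.42) apart from the last (8.46 to 12.6). In library 1 they were at 7.96, 8.22 and 6.83 CPM and in library 2 at 5.41, 5.13 and 5.08 CPM. The intervals overlapped within each of these libraries. Itgb1 was at 55.3, 73.9, 128, 240 and 298 CPM over the 5 ranges. Itga9 was at 5.88, 3.91, 1.60, 1.65 and 3.56 CPM. Its lowest level was in the range of 300 to 1000 CPM in libraries 1 to 3 (1.90, 1.78 and 1.62 CPM, from 2, 1 and 10 UMIs) and in that of 100 to 300 CPM in library 4 (0.955 CPM). Free RNA in the suspension gives UMIs in every cell, and its part in the levels of cells without keratin UMIs was not tested.

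**Figure D3:**
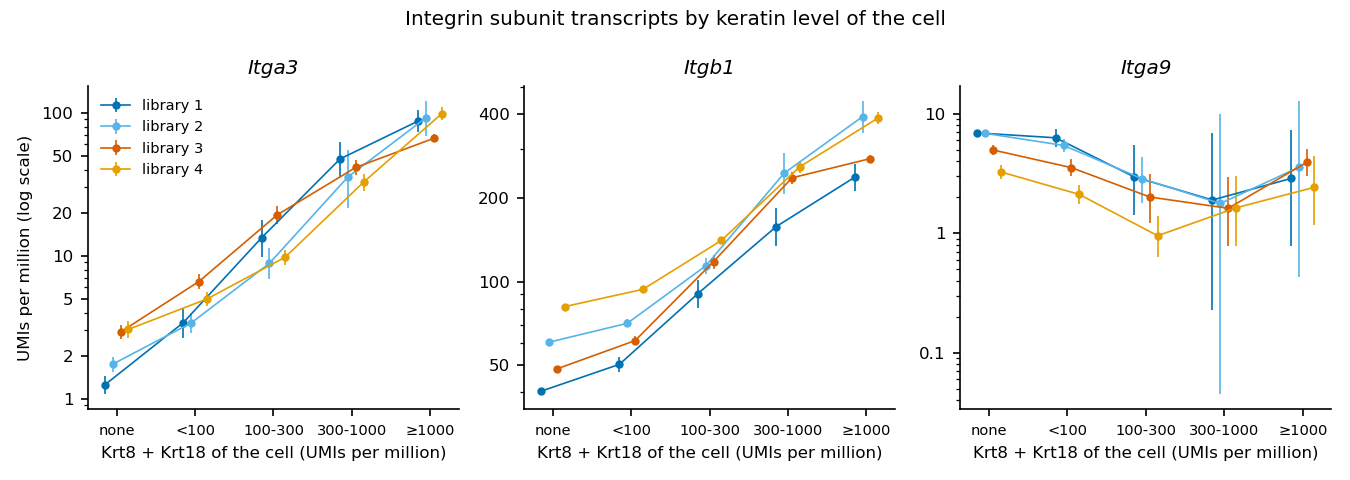
Level of Itga3, Itgb1 and Itga9 (UMIs per 1000000, log axes) in kept cells grouped by their Krt8 plus Krt18 level (no keratin UMI, under 100, 100 to 300, 300 to 1000 and 1000 or more UMIs per 1000000 of the cell), for libraries 1 to 4 with exact 95% Poisson intervals as bars. Itga3 is higher at each step in each library, from 1.25 to 3.05 in cells without keratin UMIs to 66.4 to 98.8 in the highest range.

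The shares of the classes were set beside the levels of the libraries. Keratin-high cells carried 37.0%, 13.1%, 62.9% and 43.0% of the Itga3 UMIs of libraries 1 to 4, from 1.46%, 0.562%, 12.6% and 5.86% of all UMIs. Formative-high cells carried 17.6%, 40.7%, 17.2% and 41.2%. With each class set to its share of UMIs over all kept cells, a setting chosen after seeing the data that for libraries 1 and 2 leans on 81 and 45 keratin-high cells, Itga3 was at 7.76, 5.54, 8.88 and 6.38 CPM, and libraries 3 and 2 were 1.60-fold apart. In naive-high cells alone libraries 3 and 2 were 1.62-fold apart and in all cells but the keratin-high ones 2.10-fold. Without the keratin-high cells the highest and lowest libraries were 3 and 1, at 5.05 and 1.78 CPM and 2.83-fold apart. For Itgb1 the setting of common class shares took the ratio of library 4 to library 1 from 2.41 to 1.44, and for Itga9 that of library 1 to library 4 from 2.77 to 1.56. For Itgb5 it took the ratio of library 4 to library 1 from 1.82 to 0.985. None of the 7 members was then 2-fold apart between its highest and lowest library. The share of all genes under this setting was not counted.

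**Figure D4:**
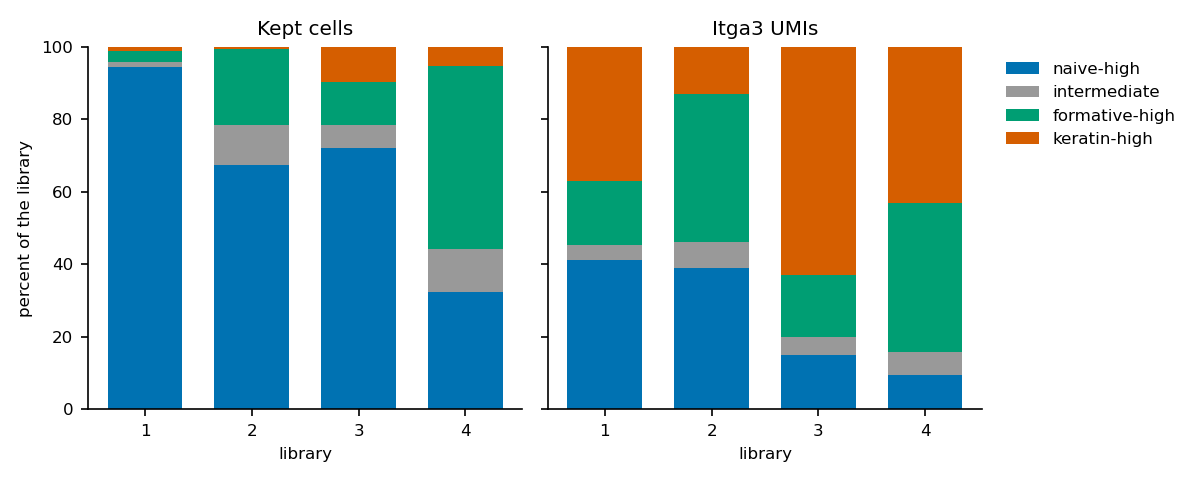
Share of kept cells (left) and of Itga3 UMIs (right) in each cell class, as stacked percentages of libraries 1 to 4. Keratin-high cells are 9.70% of the cells of library 3 and hold 62.9% of its Itga3 UMIs.

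Some differences between libraries remained within the naive-high class. Itga3 was 2.12-fold (1.77 to 2.56) higher in library 3 than in library 1, the only member at least 2-fold apart in that class. The share of all genes 2-fold apart in that class was not counted. Krt8 and Krt18 moved with Itga3, at 6.48, 7.85, 16.3 and 15.0 CPM in naive-high cells of libraries 1 to 4. In naive-high cells with no keratin UMI Itga3 was at 1.11, 1.58, 1.92 and 2.32 CPM, and the intervals of libraries 1 (0.937 to 1.30) and 4 (1.87 to 2.86) did not overlap. Itga5 was at 8.08, 5.29, 8.25 and 4.22 CPM in naive-high cells, higher in libraries 1 and 3 than in libraries 2 and 4. Itgb1 showed the opposite order, with 57.7 and 67.9 CPM in libraries 2 and 4 and 39.9 and 45.3 CPM in libraries 1 and 3.

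In single cells, each thinned to 5000 UMIs (0 kept cells were shallower), an Itga3 UMI was found in 0.521%, 0.838%, 1.19% and 1.37% of naive-high cells and in 28.4%, 28.9%, 23.8% and 21.8% of keratin-high cells of libraries 1 to 4. Without thinning the shares were 2.38% to 4.97% and 55.4% to 67.9%, at median depths of 18169 to 21748 and 22753 to 26919 UMIs. No cell type known to lack these genes was present in the cultures to measure the share given by free RNA. The thinned share in keratin-high cells of library 3 lay close to the 25.2% that a Poisson draw at the same mean gives, and the variance was 1.14 times the mean. Itgb1, whose mean was higher, was found in 65.8% of the same cells against 77.0% from a Poisson draw, with a variance 1.94 times the mean. A share of 19.2% of naive-high cells of library 3 held an Itgb1 UMI and 26.5% an Itga6 UMI.

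The balance of laminin-binding α subunits differed between classes. The Itga3 UMI count divided by that of Itga6 was 0.0180, 0.0224, 0.0410 and 0.0348 in naive-high cells, 0.173, 0.0651, 0.203 and 0.0794 in formative-high cells, and 1.27, 0.783, 0.529 and 0.592 in keratin-high cells of libraries 1 to 4. The 2 transcripts may be captured with different efficiency, so the quotient serves to compare classes and is no ratio of molecules. The quotient of Itga9 to Itga6 ran from 0.0602 to 0.108 in naive-high cells down to 0.0121 to 0.0294 in formative-high cells. For the β chains, Itgb5 divided by Itgb1 was 0.158, 0.129, 0.161 and 0.0995 in naive-high cells of libraries 1 to 4 and 0.193, 0.176, 0.157 and 0.135 in formative-high cells, higher than in naive-high cells with intervals apart in libraries 2 and 4. In libraries 1 and 3 the intervals of these classes overlapped. In keratin-high cells it was 0.0625, 0.0782, 0.0975 and 0.0889, and in library 4 its interval (0.0785 to 0.101) overlapped that of naive-high cells (0.0891 to 0.111).

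Over the 13 combinations of library and class with at least 100 cells, the pattern of Itga3 was most like that of Itgb1 among the members (Pearson r = 0.942 on log2(CPM + 1)) and then Itgb5 (r = 0.928). Itga5 was most like Itgav (r = 0.957). Itga9 had negative r with each other member, down to -0.74 with Itgb5. These values describe 13 points that share 4 libraries and a division by keratin. Of all 12849 genes, the 10 most like Itga3 were Tmcc3 (r = 0.995), Cxcl16 (0.995), 9130008F23Rik (0.990), Ccn2 (0.989), Samd4 (0.988), Gbp2b (0.988), Cald1 (0.987), Dusp5 (0.986), Amotl1 (0.985) and Efna5 (0.985). Ccn2 encodes a secreted matrix-associated protein, and Cald1 the actin-binding protein caldesmon. Ccn2 stood at 10.3 CPM in naive-high and 132 CPM in keratin-high cells of library 3, and Cald1 at 32.4 and 1505 CPM.

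For the other members the nearest genes were Cnn3, Anxa2 and Vasp for Itga5 (r = 0.968 to 0.970), Tmed5, Plod3 and Btg2 for Itga6 (0.972 to 0.981), and Nudt18, Creb3 and Erlin2 for Itgav (0.985 to 0.991). They were Gjc1, Capn1 and Tfeb for Itga9 (0.953 to 0.973), Tpm4, Arpc5 and Chp1 for Itgb1 (0.987 to 0.995), and Susd4, Ptpn9 and Myh10 for Itgb5 (0.987 each). Of these genes, Cnn3, Vasp, Tpm4, Arpc5 and Myh10 encode proteins of the actin cytoskeleton. The others were not sorted by function, and the share of actin genes over all genes was not counted.

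The remaining 19 integrin subunits on the list were mostly scarce, and only 4 reached 500 counts. Itgax, named after its values were seen, had 0 UMIs in the kept cells, where 3 UMIs would be 0.00420 CPM over all libraries. Itgae, Itgb7 and Itgb4 had the 3 largest folds between libraries, 3.17, 2.54 and 2.19. Libraries 1 to 4 held 10.9, 8.44, 6.03 and 4.31 CPM of Itgb7, the same order as Itga9. Of the 3 with enough counts within classes, Itgae and Itgb7 were at least 2-fold lower in keratin-high than in naive-high cells of libraries 3 and 4, beside 5.45% of all genes tested, with Itgb7 at 1.24 against 7.92 CPM in library 3 and 0.589 against 6.65 CPM in library 4. The limit of 200 counts over both classes let Itgae and Itgb7 through by their naive-high cells, and subunits with few UMIs there fell under it, so the count does not describe the list. Those left out went both ways. Of those named after their values were seen, Itgb3 was at 6.16 against 0.180 CPM in library 3 and at 2.75 against 0.488 CPM in library 4, higher in the keratin-high cells. Itga8 was at 3.45 against 0.249 CPM and 2.55 against 0.0563 CPM, Itgb8 at 4.46 against 0.0515 CPM and 3.63 against 0.0376 CPM, and Itga7 at 3.31 against 0.412 CPM and 2.55 against 0.901 CPM. Itgal was lower in the keratin-high cells, at 0.0919 against 0.532 CPM and 0.196 against 0.939 CPM. Its keratin-high levels rest on fewer than 3 UMIs in each library, as does the naive-high level of Itgb8 in library 4. The naive-high level of Itga8 in library 4 rests on 3 UMIs.

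Among 21 matrix ligands of integrins, 15 had enough counts between libraries and 4 were at least 2-fold apart, beside 23.3% of all genes tested, with a median fold of 1.64 against 1.47. The 3 largest folds belonged to the collagen IV chains Col4a2 (8.57) and Col4a1 (7.64) and to nephronectin, Npnt (6.15). Libraries 1 to 4 held 1.92, 3.46, 14.7 and 9.01 CPM of Col4a1. Within classes, 2 of the 13 ligands tested (Col4a1 and Col4a2) were at least 2-fold higher in keratin-high than in naive-high cells of both libraries, beside 9.24% of all genes tested, and 0 were 2-fold lower, beside 5.45%. For Col4a1 the levels were 91.4 against 1.74 CPM in library 3 and 61.9 against 1.201 CPM in library 4. Both passed the limit of 200 counts mainly through their keratin-high cells, and Npnt fell under it, so this count does not describe the list either. Npnt was at 30.6 against 1.61 CPM in library 3 and 6.08 against 0.695 CPM in library 4. Fn1, the fibronectin bound by α5β1 and named after its values were seen, was at 213, 193, 180 and 130 CPM in libraries 1 to 4.

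Of 27 adhesion partners, 26 had enough counts and 7 were at least 2-fold apart between libraries, again beside 23.3% of all genes, with a median fold of 1.64. Parva (α-parvin) had the largest fold, at 2.00, 1.22, 13.6 and 4.04 CPM in libraries 1 to 4. It was followed by Zyx (zyxin), at 7.03, 12.5, 36.9 and 31.9 CPM, and Fermt1 (kindlin-1), at 1.13, 2.75, 5.56 and 4.72 CPM. Of the 25 tested within classes, 11 were at least 2-fold higher in keratin-high than in naive-high cells of both libraries, beside 9.24% of all genes tested, and 2 were 2-fold lower, beside 5.45%. Parva passed the limit of 200 counts in library 4 mainly through its keratin-high cells, at 29.8 against 0.601 CPM. Fermt1 did so in both libraries, at 28.0 against 1.22 CPM in library 3 and 14.8 against 1.93 CPM in library 4. This count too thus leans on the limit. Parva was at 83.0 against 2.11 CPM in library 3 and Zyx at 177 against 8.14 CPM. The 2 lower ones, named after their values were seen, were Parvb (β-parvin) at 5.70 against 21.6 CPM and Tns3 (tensin-3) at 28.9 against 76.4 CPM in library 3.

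**Figure D5:**
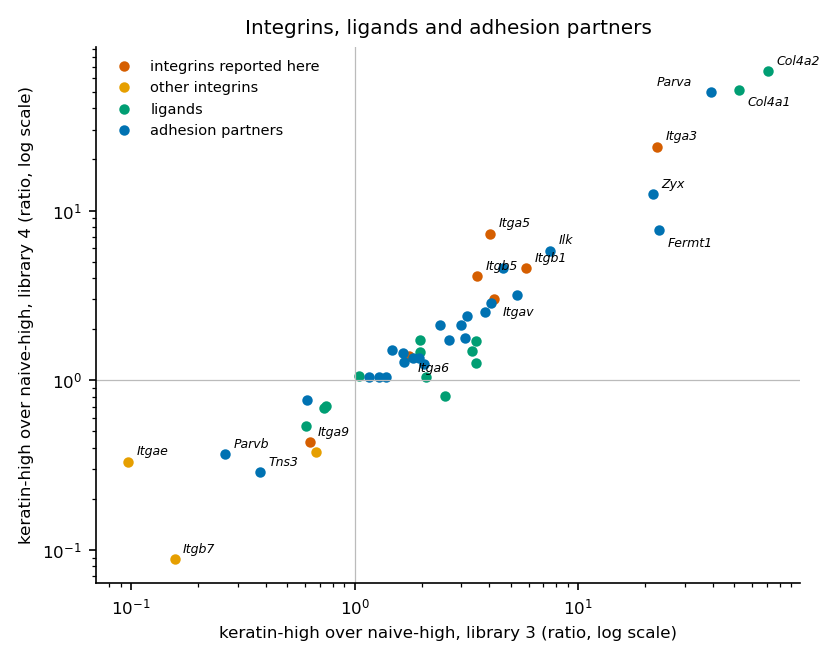
Ratio of keratin-high to naive-high cells in library 3 (x axis) and library 4 (y axis), both on log scales, for the integrins reported here, the other integrins, the ligands and the adhesion partners with at least 200 counts over both classes in each library. Itga3 lies at 22.6 and 23.8, below Col4a1, Col4a2 and Parva in both libraries and just below Fermt1 (23.0) in library 3. The lowest points are Itgae in library 3 and Itgb7 in library 4.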

How the data were processed

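Droplet single-cell RNA sequencing (10x 3′ chemistry) was made of 2 WT and 2 Srrm2 hKO mESC cultures. The deposited matrix holds raw UMI counts, which the authors made on mm10 with Cell Ranger 6.1.2, a version taken from the submitters' processing notes, joining 4 libraries with an aggregation step that subsamples reads to similar depth. No file used here ties a library number to a sample, so libraries stayed unassigned and the planned edgeR test of Srrm2 hKO against WT was not made. Members and gene lists were chosen with earlier results of these data known.

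Cells were kept with UMIs and genes at or above the library mean minus 1 SD and mitochondrial share at most 10%. Counts were summed per library and class with Python 3.11.15 and scipy 1.17.1. Intervals of ratios are conditional binomial (Clopper-Pearson) at 95%. A count under 3 was set to 3 in folds over all genes. At a count of 0 the floor of 3 counts is 0.0150 to 0.0180 CPM per library. Folds between libraries needed 500 counts over kept cells, and folds between classes 200 counts over both classes in each library with at least 100 cells of each. Genes named beyond the 7 members were the 3 with the highest folds between libraries in each list, and the 10 most like Itga3 and 3 most like each other member by Pearson r. Single markers of other cell types, and further genes marked so in the text, were named after their values were seen. No doublet caller was run. The functions were tested on simulated data. An item of the ligand list is not reported here.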

Additional observations from a re-analysis of the deposited data

How the results depend on the processing

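No paired analysis was possible because no library could be tied to a sample, so neither the edgeR test nor its alternatives (replicate block, DESeq2, its size factors, leaving out a sample) was run. The 4.33-fold range of Itga3 between libraries 3 and 2 was 3.79 as a mean over cells, 3.57 without cells above 2 times the median UMIs and 1.62 in naive-high cells only. Chosen after seeing the data, leaving out keratin-high cells gave 2.10 for this pair and common class shares 1.60. Library 3 stood 2.83-fold above library 1 without keratin-high cells and 2.12-fold above it in naive-high cells, where library 1 was the lowest. All barcodes and size factors kept the ratio of libraries 3 and 2 within its interval. The count of 4 members at least 2-fold apart became 1 in naive-high cells and 0 with common class shares, and stayed between 3 and 6 in the other alternatives, 1.5-fold in place of 2-fold included. The share of all genes was not counted under these settings, so these counts have no background beside them. The median fold over all genes was 1.47 in the main setting, near the 1.5-fold limit. The keratin-high to naive-high ratio of Itga3 in library 3 was 25.7 without the deep cells and within its interval otherwise. That of formative-high cells in library 4 stayed within its interval with all barcodes, as a mean over cells, without deep cells and at the other keratin limits and panel ratios, and among cells with no keratin UMI it was 1.84, below that interval. The count of 5 members higher in keratin-high cells was 4 or 5 in each alternative, all 4 libraries included, again with no share of all genes beside it. For the other members, 20 of 42 values stayed within their intervals, 21 moved beyond them in the same direction, and Itgb5 turned to 0.985 with common class shares. Depth limits the classes of under 100 cells most: Itga9 rests on 6 and 3 UMIs in the keratin-high cells of libraries 1 and 2.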

Other observations

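Some genes of the lists fell under the limit of 500 counts and still differed between libraries by more than counting error. They were named after their values were seen, and no explanation was tested. Tnc, which encodes tenascin C, a ligand of the α9β1 integrin, had 11, 11, 406 and 36 UMIs in libraries 1 to 4, or 0.0659, 0.0549, 2.35 and 0.207 CPM, so that most of its UMIs came from library 3. Itga8, which encodes an α chain that binds nephronectin, had 33, 23, 147 and 66 UMIs, and Itgb8, a partner of αv, had 9, 18, 117 and 76. The adaptor gene Lims2 had 82, 8, 132 and 13 UMIs and was thus higher in libraries 1 and 3 than in libraries 2 and 4, as Itga5 was in naive-high cells.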
